A study of Mus musculus with 12 samples.

Results

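The genes described here are 43 named mouse genes of the hypoxia response and of glycolysis, measured in STAT6 wild-type and STAT6 knockout B cells on 12 1-colour microarrays. They were found on the array by gene name, which matched 75 of its 55681 probes, and 41 of the 43 had a probe bright enough to be tested among 16497 genes. The list was drawn up after results of these arrays were known, because several of its genes differed widely between single knockout arrays. What the knockout arrays show is therefore a description: members past the threshold of the model are counted beside the share of all genes, nothing is read from those counts, and p-values of single members are given for the response of wild-type cells to IL-4. Spleen B cells had been isolated by negative selection from BALB/c females 9 weeks old that were either wild type or STAT6 knockout. All cultures, the controls too, received anti-CD40 (10 µg/ml) together with lipopolysaccharide (LPS, 2 µg/ml) over 4 days, with fresh medium on day 3, and the IL-4 cultures also received IL-4 at 25 ng/ml. Each genotype thus has 3 control arrays, which means stimulated without IL-4, and 3 IL-4 arrays, 4 groups in all. The knockout allele is not given in the sources used here, and the labels call the samples triplicates and do not name the animals behind them, in which case a p-value may reflect technical spread alone.

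Cells adapt to low oxygen mainly through HIF, a transcription factor made of an oxygen-regulated alpha subunit and the partner ARNT. In oxygen, prolyl hydroxylases of the EGLN family mark the alpha subunit, VHL binds it and it is degraded. When oxygen is scarce HIF accumulates and induces glycolytic enzymes, angiogenic factors, mitophagy receptors and, as a feedback, Egln3. B cells also raise glycolysis when they are activated and grow. The oxygen in the cultures is not stated in the labels.

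HIF binds DNA at elements with the core ACGTG or GCGTG, so the promoters of the members with the widest spread between arrays are shown. The windows run from 250 bases before to 50 bases after a RefSeq transcription start (GRCm38.p6), 5′ to 3′ on the strand of the gene, and capitals mark ACGTG or its reverse complement CACGT. They are chr11:54100674-54100973 (plus strand) for P4ha2, chr3:51396498-51396797 (minus) for Mgarp, chr12:54203825-54204124 (minus) for Egln3, chr8:45999801-46000100 (minus) for Ankrd37, chr7:138909457-138909756 (minus) for Bnip3 and chr7:46845554-46845853 (plus) for Ldha, the last as an example of a glycolytic enzyme.
P4ha2: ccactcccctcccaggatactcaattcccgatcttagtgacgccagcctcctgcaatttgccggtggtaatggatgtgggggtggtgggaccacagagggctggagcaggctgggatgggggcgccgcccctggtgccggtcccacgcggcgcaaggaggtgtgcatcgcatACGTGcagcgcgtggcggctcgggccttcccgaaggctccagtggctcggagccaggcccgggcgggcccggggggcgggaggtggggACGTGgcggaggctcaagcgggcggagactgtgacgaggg
Mgarp: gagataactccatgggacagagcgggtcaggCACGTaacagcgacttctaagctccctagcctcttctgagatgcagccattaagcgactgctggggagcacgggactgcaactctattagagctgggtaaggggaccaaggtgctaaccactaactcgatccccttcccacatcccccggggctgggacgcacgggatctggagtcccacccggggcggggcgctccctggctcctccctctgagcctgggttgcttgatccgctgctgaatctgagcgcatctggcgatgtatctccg
Egln3: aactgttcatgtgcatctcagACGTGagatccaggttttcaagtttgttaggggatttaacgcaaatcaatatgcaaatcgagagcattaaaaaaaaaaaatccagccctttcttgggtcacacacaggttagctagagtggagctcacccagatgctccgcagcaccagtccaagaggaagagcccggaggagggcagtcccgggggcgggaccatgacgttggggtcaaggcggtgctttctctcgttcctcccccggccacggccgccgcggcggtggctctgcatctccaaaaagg
Ankrd37: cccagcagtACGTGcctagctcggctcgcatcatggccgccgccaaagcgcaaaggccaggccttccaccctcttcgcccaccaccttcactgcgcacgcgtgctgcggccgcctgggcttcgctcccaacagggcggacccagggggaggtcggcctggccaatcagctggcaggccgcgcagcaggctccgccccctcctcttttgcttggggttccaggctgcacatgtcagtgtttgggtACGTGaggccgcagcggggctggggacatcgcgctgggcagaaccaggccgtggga
Bnip3: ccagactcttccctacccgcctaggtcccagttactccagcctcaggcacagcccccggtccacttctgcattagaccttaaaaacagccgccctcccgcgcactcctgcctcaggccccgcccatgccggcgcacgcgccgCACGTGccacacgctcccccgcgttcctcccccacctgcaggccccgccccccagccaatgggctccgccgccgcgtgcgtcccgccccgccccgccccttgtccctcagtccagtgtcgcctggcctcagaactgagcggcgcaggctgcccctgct
Ldha: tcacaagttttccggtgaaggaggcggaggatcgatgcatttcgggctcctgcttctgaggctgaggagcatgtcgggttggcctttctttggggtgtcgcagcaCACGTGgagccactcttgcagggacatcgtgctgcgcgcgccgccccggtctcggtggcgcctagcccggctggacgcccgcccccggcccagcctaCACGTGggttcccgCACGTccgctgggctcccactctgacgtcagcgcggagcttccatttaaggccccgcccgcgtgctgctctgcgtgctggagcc
The matches begin at positions -78 and 11 from the start in P4ha2, -219 in Mgarp, -229 in Egln3, -241 and -6 in Ankrd37, and -108 and -107 in Bnip3, where the palindrome CACGTG is read on both strands. The Ldha window holds 5 matches, from -145 to -34. RefSeq windows were found for 39 of the 43 members, and ACGTG on either strand lay in a window of 24 of the 39 (61.5%), beside 5886 of 27025 genes with a window (21.8%). The related core GCGTG lay in 25 of the 39 (64.1%), beside 35.2% of all genes. A gene with several windows counts if any of them matches. By window, ACGTG lay in 27 of 54 of the members, beside 19.6% of all 32851. Base composition was not matched and the difference was not tested. These are matches of letters and no measurement of binding.

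All 12 arrays gave similar overall signal, with a 75th percentile of intensity of 296 to 356, 40.7% to 44.0% of spots well above background and no saturated spot. Stat6 itself separated the genotypes, at log2 signals of 3.11 to 3.42 in wild type and 1.13 to 1.59 in the knockout. The arrays lay on 2 slides, slide 1 with the 6 wild-type arrays plus knockout controls 1 and 2, and slide 2 with the other knockout control, number 3, beside all 3 arrays of knockout IL-4. All 7 B cell markers were well above background on all 12 arrays, the 4 NK cell markers and the T cell markers Cd8a and Cd8b1 on none, while Cd3d, Cd3e, Cd3g, Cd4, Csf1r, Cd14, Itgam and Cd68 were well above it on all arrays. Summed signals relative to the 75th percentile were 1088 to 1316 for the 7 B cell markers, 23.8 to 43.7 for 6 macrophage markers and 2.01 to 2.77 for 6 T cell markers. Within the knockout groups, where the hypoxia genes spread, the B cell sums were 1088 to 1152 without and 1155 to 1220 with IL-4, the macrophage sums 35.6 to 39.1 and 40.4 to 43.7, and the T cell sums 2.01 to 2.77 and 2.07 to 2.35. Of the erythroid markers, Alas2 was well above background on no array, and Hba-a1, an alpha globin, differed by 0.67 ± 0.14 (log2, SE) between knockout and wild-type control and by -0.53 ± 0.14 between knockout IL-4 and knockout control. Cd68, a lysosomal protein of macrophages, differed by 0.49 ± 0.08 and -0.92 ± 0.08 in the same comparisons, while Emr1, another macrophage marker, differed by -0.13 ± 0.05 and 0.55 ± 0.05. Neither Hba-a1 nor Cd68 was highest on array 3 in either knockout group. Emr1 was highest there in both, at 4.34, 4.35 and 4.41 in knockout control and 4.88, 4.89 and 4.97 in knockout IL-4. Itgam was highest on array 3 in knockout IL-4 only, and Csf1r, Cd3d, Cd3e and Cd4 in knockout control only. Sums of 5 plasma cell markers were 199 to 248 in knockout control and 108 to 111 in knockout IL-4. In wild type they were 222 to 237. The single markers went different ways with IL-4. Igj, the joining chain of immunoglobulin, differed by -5.82 (log2) in wild type and -3.44 in the knockout, and Prdm1 by -2.81 and -1.69. Xbp1 differed by 0.87 and -0.90, Irf4 by 0.29 and 0.23, and Sdc1 by 0.76 and 0.10. The part of other cells in the results was not tested.

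The levels below are log2 signals, the log2 intensity of a probe minus the log2 75th percentile of its array, so 0 is a signal equal to that percentile and 1 unit is a 2-fold difference. They are not comparable between genes. In these bulk cultures a smaller share of cells with a transcript and less of it per cell cannot be told apart.

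In knockout cultures the members differed from array to array by far more than in wild-type cultures. The difference between the highest and the lowest of 3 arrays had a median over the 41 members of 0.13 in wild-type control and 0.09 in wild-type IL-4, close to the medians over all 16497 genes (0.14 and 0.13). In knockout control it was 0.68, beside 0.20 over all genes, and in knockout IL-4 it was 0.92, beside 0.21. A difference above 1, that is above 2-fold between arrays of a group, occurred in no member in either wild-type group, in 9 members in knockout control (22.0%, beside 3.01% of all genes) and in 18 members in knockout IL-4 (43.9%, beside 2.42%). The list was chosen in part for this spread, which is described here and not tested.

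**Figure D1:**
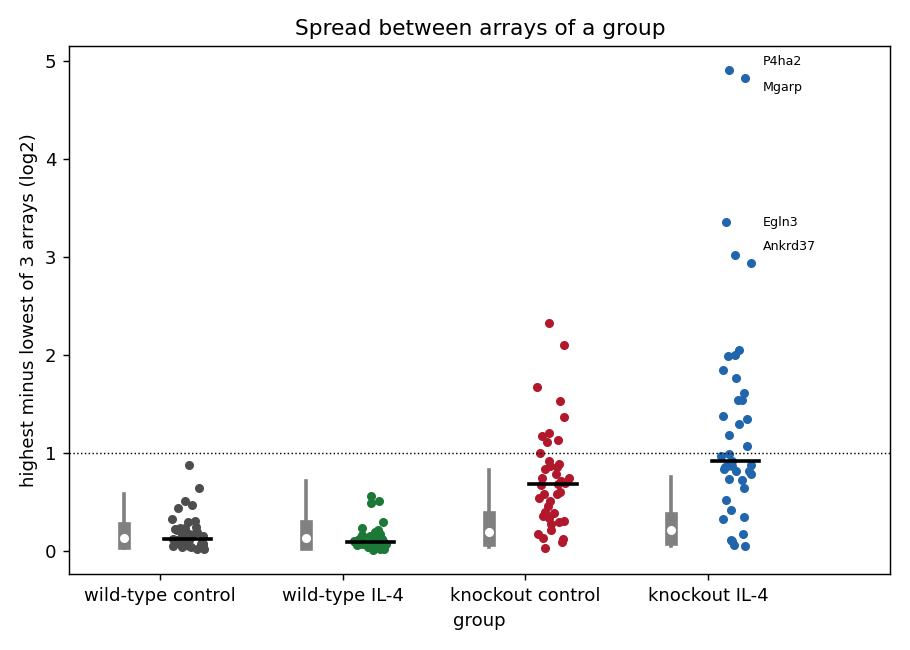
Highest minus lowest of the 3 arrays of a group (log2, y axis) for the 41 tested members (coloured points, black bar at their median) in the 4 groups (x axis), beside all 16497 genes in grey (white dot, median; thick bar, quartiles; thin line, 5th to 95th percentile). The dotted line marks 1, which 9 members exceed in knockout control, 18 in knockout IL-4 and none in wild type.

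The same array was high for nearly all members. Array 3 of knockout IL-4 was the highest of its group in 37 of 41 members, beside 31.5% of all genes. Array 1 was the lowest in 29, beside 23.1%, and both held in 29 (70.7%, beside 15.7% of all genes). In knockout control, array 3 was highest in 34, beside 37.7% of all genes, and array 1 lowest in 36, beside 35.0%. Both held in 33 (80.5%, beside 24.9% of all genes). The 3 knockout IL-4 arrays share slide 2. Of the knockout controls, array 3 also lies on slide 2 and arrays 1 and 2 on slide 1. Averaged over the 41 members, the difference from the wild-type control mean was 0.72, 1.25 and 1.44 on knockout control arrays 1, 2 and 3, and -0.23, 0.03 and 1.05 on knockout IL-4 arrays 1, 2 and 3. On the wild-type IL-4 arrays it was -0.14, -0.13 and -0.13. Each of the knockout controls had 35 to 37 members above all 3 wild-type controls. Of the knockout IL-4 arrays, array 1 had 11 such members, array 2 had 16 and array 3 had 34, while 25, 14 and 5 members lay below all wild-type controls there. The share over all genes was not computed for these counts of single arrays against the wild-type controls, so nothing is read from them. Not every transcript of these cultures differed in this way: Fcer2a, the low-affinity IgE receptor, had log2 signals of 6.80, 6.78 and 6.82 on the same 3 knockout IL-4 arrays.

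**Figure D2:**
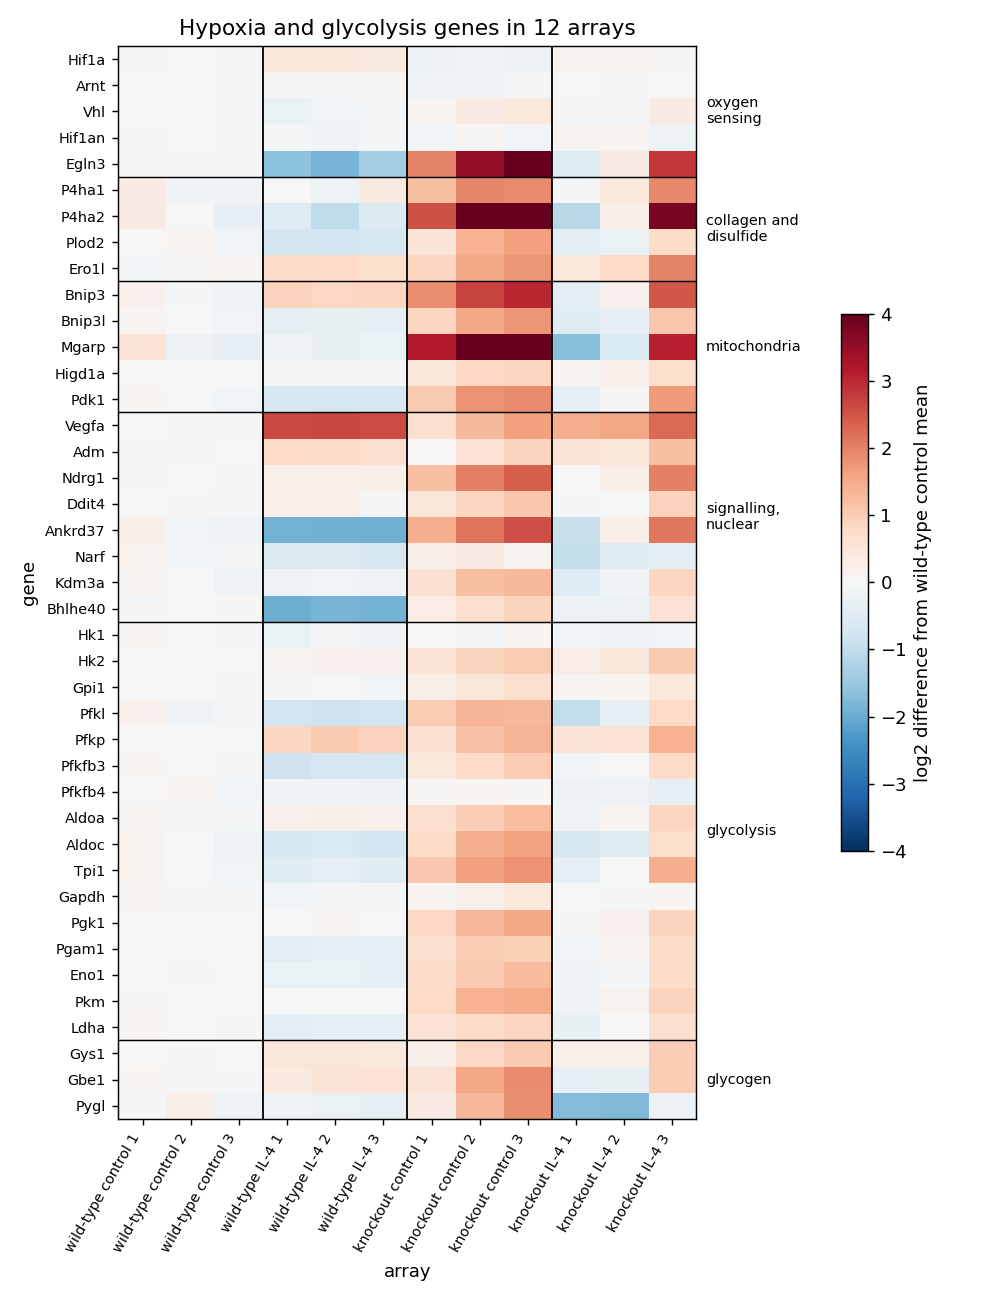
Log2 difference of each of the 41 tested members (rows, grouped by role) from its wild-type control mean on each of the 12 arrays (columns). Colours end at 4 in either direction. Red marks higher signals, which fill the knockout control columns and knockout IL-4 array 3, where the means over members were 0.72 to 1.44 and 1.05.

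Of the 5 oxygen-sensing genes tested, Egln3 had the widest spread between arrays. The other 4, each on its brightest probe, spanned less than 2-fold over all 12 arrays. Egln3, a prolyl hydroxylase that HIF induces, was measured by a probe at chr12:55280953-55281012 (mm9, accession NM_028133). It had log2 signals of -3.46, -3.44 and -3.59 on wild-type control arrays 1, 2 and 3, -5.14, -5.36 and -4.87 on wild-type IL-4, -1.53, 0.02 and 0.57 on knockout control and -4.01, -3.18 and -0.66 on knockout IL-4. All knockout controls lay above all wild-type controls, and knockout IL-4 array 3 lay with the knockout controls while arrays 1 and 2 lay on either side of the wild-type controls, and 2 of these 3 were well above background. Egln3 was not well above background on any wild-type IL-4 array, so the wild-type IL-4 mean was at least 1.17-fold below the control mean. The difference did not pass (limma, adjusted p = 0.0899). The knockout control mean exceeded the wild-type control mean by 3.19 ± 0.76 (SE of the 12-array model).

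Hif1a, the oxygen-regulated subunit of HIF, did not share the spread. Its signals were 0.98, 1.06 and 1.07 in wild-type control, 1.53, 1.48 and 1.41 with IL-4, 0.81, 0.90 and 0.81 in knockout control and 1.18, 1.12 and 1.07 in knockout IL-4. Array 3 was not the highest in either knockout group, and each knockout group lay below its wild-type counterpart without overlap. Arnt, its partner, stayed between 1.81 and 2.07 on all 12 arrays on its brightest probe. A dimmer probe, also well above background on all 12, ran from -0.87 to 0.21. Between knockout and wild-type control the brightest probe differed by -0.16 and the dimmer one by 0.14. Vhl, the subunit that recognises hydroxylated HIF, had group means of 2.13, 1.98, 2.41 and 2.19 in wild type without and with IL-4 and in the knockout without and with it, and Hif1an, an asparagine hydroxylase that inhibits HIF, had means of 0.68, 0.58, 0.62 and 0.68. Egln1, the main prolyl hydroxylase for HIF in most cells, was well above background on a single array, knockout IL-4 array 2, and was not tested.

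Among the collagen and disulfide enzymes, P4ha2 had the widest spread of any member in knockout IL-4, signals below background included. Of the members well above background on all 3 of these arrays, Mgarp had the widest. P4ha2 is an alpha subunit of the prolyl hydroxylase of collagen (chr11:53945032-53945091, mm9). It had log2 signals of -2.92, -3.27 and -3.57 in wild-type control, -3.75, -4.27 and -3.84 in wild-type IL-4, -0.72, 1.00 and 1.60 in knockout control and -4.38, -2.98 and 0.54 in knockout IL-4. The knockout IL-4 arrays ran from below all wild-type controls on array 1 to among the knockout controls on array 3, and the probe was well above background on 2 of these 3, so the size of their spread is not given as a fold. P4ha2 was not well above background on any wild-type IL-4 array, so the wild-type IL-4 mean was at least 1.35-fold below the control mean. The difference did not pass (limma, adjusted p = 0.586). The paralogue P4ha1 gave -0.84, -1.32 and -1.36, -1.19, -1.38 and -0.82, 0.04, 0.78 and 0.73 and -1.24, -0.76 and 0.75 in the same order of groups. Its knockout controls again lay above every wild-type array, and so did knockout IL-4 array 3.

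Plod2, which hydroxylates lysine in collagen, had signals of -1.24, -1.11 and -1.34 in wild-type control, -1.98, -2.02 and -1.90 in wild-type IL-4, -0.71, 0.15 and 0.41 in knockout control and -1.68, -1.50 and -0.49 in knockout IL-4. Ero1l (now named Ero1a), the oxidase that supplies disulfide bonds in the endoplasmic reticulum, gave -0.74, -0.60 and -0.57, 0.14, 0.15 and 0.06, 0.23, 0.89 and 1.12 and -0.20, 0.16 and 1.34. For both, array 3 was the highest of each knockout group and all knockout controls were above all wild-type controls. Across the 4 enzymes the mean difference from the wild-type control mean was 1.28, 2.28 and 2.54 on the knockout controls and -0.30, 0.30 and 2.11 on the knockout IL-4 arrays.

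Mitochondrial members divided the knockout arrays in the same way. Mgarp, a mitochondrial protein known from hypoxic cells (chr3:51192355-51192414, mm9), had signals of -1.18, -1.97 and -2.06 in wild-type control, -1.93, -2.05 and -1.99 in wild-type IL-4, 1.44, 2.55 and 3.12 in knockout control and -3.45, -2.35 and 1.38 in knockout IL-4. Knockout IL-4 arrays 1 and 2 were below every wild-type array and array 3 was above every one, a 28.4-fold range within the group. The 3 knockout controls stood above all wild-type arrays, by 4.11 ± 0.99 on average against the wild-type controls. The knockout IL-4 mean differed from the knockout control mean by -3.84 ± 0.99, an SE that also draws on the closer wild-type arrays.

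Bnip3, a mitophagy receptor, had log2 signals of 4.42, 4.19 and 4.09 in wild-type control, 5.14, 5.04 and 5.09 in wild-type IL-4, 6.08, 6.93 and 7.26 in knockout control and 3.77, 4.41 and 6.71 in knockout IL-4. Its relative Bnip3l gave 5.19, 5.09 and 4.99, 4.70, 4.79 and 4.73, 5.94, 6.63 and 6.86 and 4.60, 4.76 and 6.21. The knockout controls of both stood above all wild-type arrays, and knockout IL-4 array 3 overlapped the knockout controls. Pdk1, a kinase that keeps pyruvate out of the citric acid cycle, had signals of 0.52, 0.45 and 0.32 in wild-type control, -0.19, -0.23 and -0.27 in wild-type IL-4, 1.47, 2.23 and 2.33 in knockout control and 0.08, 0.48 and 2.13 in knockout IL-4. Higd1a, a small protein of the respiratory chain, followed with a narrower range, from 5.93 to 6.33 in knockout control and from 5.53 to 6.18 in knockout IL-4, against 5.40 to 5.49 on all wild-type arrays.

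**Figure D3:**
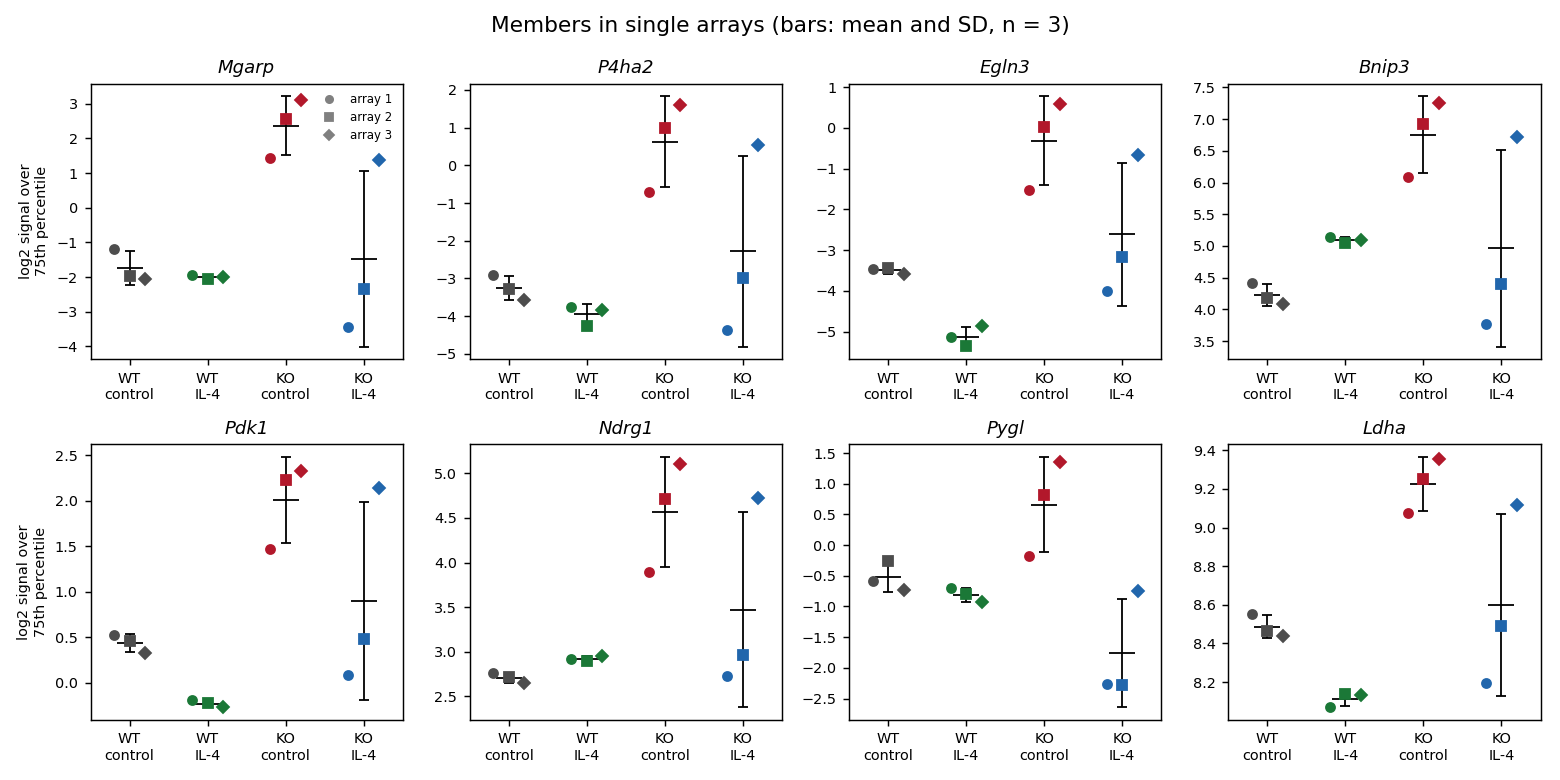
Log2 signal over the 75th percentile of the array (y axis) of 8 members with array-to-array differences, in 4 groups (x axis; WT wild type, KO knockout). Symbols mark arrays 1, 2 and 3 and bars the mean and SD (n = 3). Knockout IL-4 array 3 is the highest of its group in all 8 panels, at 1.38 for Mgarp, beside -3.45 and -2.35 on arrays 1 and 2.

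Among secreted and nuclear members, Vegfa, the main angiogenic growth factor (chr17:46154387-46154446, mm9), was the one that IL-4 moved furthest in wild type. Its signals were 2.10, 2.15 and 2.04 in wild-type control, 4.74, 4.78 and 4.72 in wild-type IL-4, 2.75, 3.41 and 3.75 in knockout control and 3.55, 3.63 and 4.37 in knockout IL-4. The wild-type IL-4 arrays lay above all 9 others, and array 3 was highest in each knockout group. Adm, which encodes the vasodilator adrenomedullin, gave 2.16, 2.29 and 2.23, 3.01, 2.97 and 2.90, 2.24, 2.80 and 3.1 and 2.76, 2.71 and 3.44, with knockout control array 1 level with the wild-type controls.

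Ankrd37, an ankyrin repeat protein, had signals of 3.19, 2.82 and 2.75 in wild-type control, 1.03, 1.00 and 0.99 in wild-type IL-4, 4.37, 5.10 and 5.51 in knockout control and 2.02, 3.17 and 5.04 in knockout IL-4. The wild-type IL-4 arrays were the lowest of the 12, and the knockout IL-4 arrays spanned 8.15-fold. Bhlhe40, a transcriptional repressor of the circadian and hypoxia systems, gave 2.89, 2.94 and 3.00, 1.00, 1.07 and 1.04, 3.24, 3.61 and 3.83 and 2.72, 2.70 and 3.52. Here too the wild-type IL-4 arrays stood below the others. Ndrg1, a stress-induced protein, gave 2.76, 2.71 and 2.65, 2.92, 2.89 and 2.95, 3.90, 4.71 and 5.10 and 2.73, 2.96 and 4.72, and Kdm3a, a histone demethylase that needs oxygen, gave 2.51, 2.40 and 2.27, 2.19, 2.29 and 2.26, 3.02, 3.59 and 3.71 and 1.88, 2.26 and 3.25. Both had knockout controls above all wild-type controls and array 3 as the highest in either knockout group.

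Ddit4, an inhibitor of the growth kinase mTOR, ranged from 6.63 to 6.93 in wild type, 7.20 to 7.80 in knockout control and 6.68 to 7.65 in knockout IL-4. Narf, a nuclear protein that binds prelamin A, did not share the pattern in knockout control, with signals of -0.29, -0.23 and -0.45. In knockout IL-4 its signals of -1.52, -1.09 and -1.0 kept the order of most members, over a range of 0.52. Mxi1, an antagonist of Myc, was not well above background on any array and was not tested.

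The 16 glycolytic enzymes moved by smaller amounts than Egln3, P4ha2 and Mgarp, and in the same arrays. Their mean difference from the wild-type control mean was 0.57, 0.91 and 1.04 on the knockout controls and -0.15, 0.01 and 0.69 on knockout IL-4 arrays 1, 2 and 3, beside -0.21, -0.14 and -0.19 on the wild-type IL-4 arrays. Tpi1, triose phosphate isomerase, had signals of 6.55, 6.40 and 6.32 in wild-type control, 5.95, 6.04 and 5.94 in wild-type IL-4, 7.50, 8.07 and 8.21 in knockout control and 6.02, 6.43 and 7.87 in knockout IL-4. Pfkl, a phosphofructokinase, gave 2.51, 2.20 and 2.28, 1.56, 1.49 and 1.57, 3.34, 3.70 and 3.67 and 1.36, 1.99 and 3.12. In both, knockout IL-4 array 1 was below or among the lowest wild-type arrays and array 3 above the wild-type controls.

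Further down the pathway, Aldoc, an aldolase, gave 6.89, 6.78 and 6.59 in wild-type control, 6.05, 6.13 and 5.98 in wild-type IL-4, 7.52, 8.17 and 8.36 in knockout control and 6.10, 6.26 and 7.45 in knockout IL-4. Pgk1, phosphoglycerate kinase (chrX:103398640-103398699, mm9), gave 7.33, 7.35 and 7.34, 7.33, 7.42 and 7.32, 8.17, 8.66 and 8.85 and 7.39, 7.51 and 8.24. Its 6 wild-type values lay within 7.32 to 7.42, and every knockout control was above them. Eno1, enolase, gave 7.19, 7.25 and 7.18, 6.93, 6.93 and 6.87, 7.95, 8.27 and 8.46 and 7.07, 7.12 and 7.94, and Pkm, pyruvate kinase, gave 6.83, 6.79 and 6.77, 6.77, 6.79 and 6.80, 7.61, 8.19 and 8.29 and 6.63, 6.93 and 7.70. In both, the knockout controls and knockout IL-4 array 3 were above all wild-type arrays.

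Ldha, which turns pyruvate into lactate, ranged from 8.07 to 8.55 in wild type, with 9.08, 9.25 and 9.35 in knockout control and 8.19, 8.49 and 9.12 in knockout IL-4. Aldoa, the main aldolase, had means of 9.16, 9.35, 10.12 and 9.42 in the order of groups above, Pgam1, phosphoglycerate mutase, 7.0, 6.63, 7.86 and 7.24, Gpi1, glucose phosphate isomerase, 8.18, 8.11, 8.65 and 8.39, and Hk2, the inducible hexokinase, 2.31, 2.46, 3.13 and 2.92. In these 4 the knockout control arrays were all above the wild-type control arrays. Pfkfb3, which makes the activator of phosphofructokinase, had means of 3.06, 2.32, 3.80 and 3.27.

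Some enzymes of glycolysis stayed near the same level. Hk1, the constitutive hexokinase, had group means from 7.49 to 7.65, Gapdh from 9.25 to 9.58 and Pfkfb4, a relative of Pfkfb3, from 1.90 to 2.21. For Hk1 and Gapdh this rests on the choice of probe. The brightest Hk1 probe differed by 0.01 between the genotypes without IL-4 and the other 2 by 0.59 and 0.60, and the 8 Gapdh probes differed by 0.24 to 0.71, the brightest by least. The file places that brightest Gapdh probe at chr7:59003199-59003257 (mm9), and since Gapdh has many near-identical copies in the genome its signal may combine transcripts.

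Glycogen genes spread like the rest. Pygl, the liver form of glycogen phosphorylase, which breaks glycogen down, had signals of -0.58, -0.26 and -0.73 in wild-type control, -0.70, -0.80 and -0.93 in wild-type IL-4, -0.18, 0.82 and 1.35 in knockout control and -2.26, -2.28 and -0.75 in knockout IL-4. The knockout IL-4 arrays 1 and 2 were below all wild-type arrays, and all 3 were below all knockout controls. Gbe1, the branching enzyme, gave 1.18, 1.06 and 1.06, 1.5, 1.64 and 1.69, 1.61, 2.63 and 2.98 and 0.78, 0.81 and 2.08. Gys1, glycogen synthase, ranged from 2.18 to 2.69 in wild type, 2.49 to 3.27 in knockout control and 2.40 to 3.18 in knockout IL-4.

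The IL-4 response of wild-type cells, whose arrays all lie on slide 1, was tested because the knockout arrays led to the list. Members moved in both directions. Of 41 members, 4 rose and 5 fell at an adjusted p under 0.05 (limma, Benjamini-Hochberg over 16497 genes), beside 26.4% and 30.8% of all genes, and 1 rose and 2 fell by at least 2-fold, beside 5.72% and 6.95%. The median change was -0.15 over the members and -0.04 over all genes. In 32 of 41 members no control array overlapped the IL-4 arrays, beside 69.2% of all genes. The model takes its estimate of spread from all 12 arrays, knockout arrays included. A total of 26 members passed, 11 higher and 15 lower, when only the 6 wild-type arrays were fitted, beside 28.3% of all genes higher and 33.5% lower in that fit. Without knockout IL-4 array 3, 20 passed, 7 higher and 13 lower, beside 27.4% and 32.2% of all genes.

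Vegfa rose 6.27-fold with IL-4 (log2 change 2.65 ± 0.25 SE, adjusted p = 7.51e-06). Hif1a rose 1.35-fold (0.44 ± 0.05, adjusted p = 4.82e-05), and Pfkp, the platelet type of phosphofructokinase, rose 1.91-fold (0.94 ± 0.23, adjusted p = 0.00518). The Pfkp signals behind this were 2.70, 2.68 and 2.65 in wild-type control and 3.53, 3.72 and 3.60 with IL-4, with 3.30, 3.86 and 4.05 in knockout control and 3.22, 3.25 and 4.05 in knockout IL-4. A second, dim Pfkp probe changed by -0.24, and with the mean of both probes Pfkp no longer passed (adjusted p = 0.191, the highest over its alternatives, the lowest being 4.48e-05). Adm rose 1.67-fold (0.74 ± 0.22, adjusted p = 0.0156), and with the authors' gene-level values its adjusted p was 0.0507, the highest of a range that starts at 7.32e-05.

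Bhlhe40 fell 3.75-fold (-1.91 ± 0.21, adjusted p = 2.04e-05) and Ankrd37 fell 3.77-fold (-1.91 ± 0.60, adjusted p = 0.0194). Ankrd37 lost its call without a filter on dim probes and without wild-type control 1, its adjusted p ranging from 4.15e-05 to 0.0591 over the alternatives. Pfkfb3 fell 1.67-fold (-0.74 ± 0.21, adjusted p = 0.013), Narf 1.52-fold (-0.61 ± 0.12, adjusted p = 0.00173) and Pfkfb4 1.13-fold (-0.18 ± 0.06, adjusted p = 0.0229). The call for Pfkfb4 was lost under 5 alternatives, among them the omission of wild-type control 2 or wild-type IL-4 array 3, with adjusted p from 0.00963 to 0.203. In each of these 9 genes all 3 IL-4 arrays lay on the same side of all 3 controls. Among the 32 that did not pass were members with clearly separate arrays but a wide shared SE, such as Bnip3 (0.87 ± 0.61), Ero1l (0.75 ± 0.34), Pfkl (-0.79 ± 0.34) and Pdk1 (-0.66 ± 0.44). Arnt differed by 0.04 on its brightest probe and by 0.87 on a dimmer one.

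**Figure D4:**
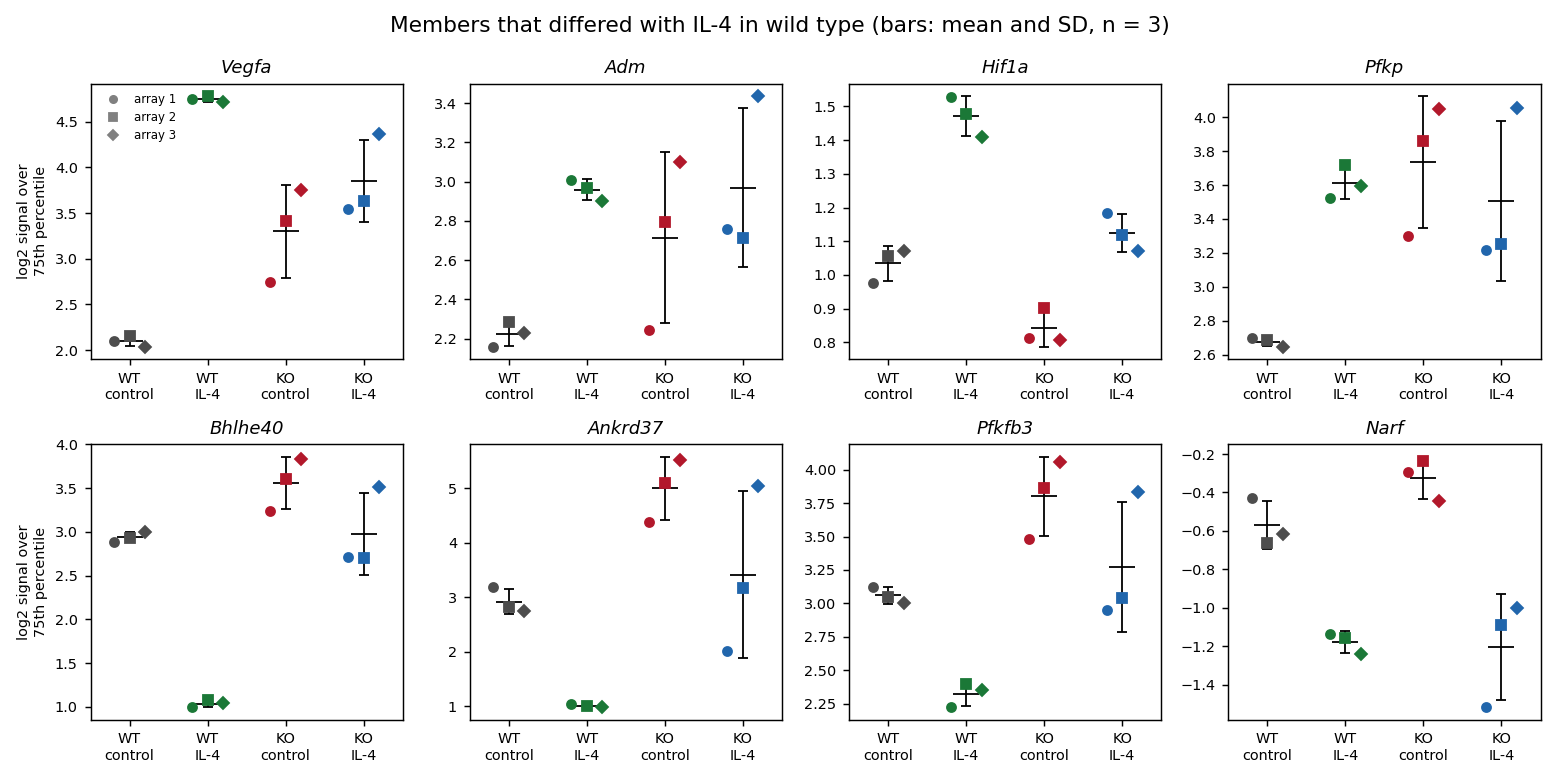
Log2 signal over the 75th percentile of the array (y axis) in 4 groups (x axis; WT wild type, KO knockout) for 8 of the 9 members that passed in the wild-type IL-4 comparison. Symbols mark arrays 1, 2 and 3 and bars the mean and SD (n = 3). Wild-type control and IL-4 arrays do not overlap in any panel, and the 3 Vegfa values with IL-4 lie at 4.72 to 4.78.

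The remaining comparisons involve the knockout arrays and are descriptions. Without IL-4, knockout minus wild type, 38 of 41 members had a positive difference, the median was 1.04 (-0.04 over all genes), and in 36 the arrays did not overlap, beside 38.3% of all genes. By the same model 26 were higher and 2, Hif1a and Arnt, lower at an adjusted p under 0.05, beside 4.73% and 6.96% of all genes, and 19 were higher by at least 2-fold, beside 0.837%. Because the members were chosen with these arrays in view, nothing is read from those counts. The differences were largest for Mgarp (4.11 ± 0.99 SE), P4ha2 (3.88 ± 1.03), Egln3 (3.19 ± 0.76) and Bnip3 (2.53 ± 0.61). The count of 19 became 1 without any single wild-type control, without knockout control 2 or without knockout control 3, and 10 without any single wild-type IL-4 array. Calls over all genes, 194 with all arrays, fell in the same fits, to between 73 and 97 and to between 150 and 156. The median over the members was 1.00 to 1.07 without a wild-type control or knockout control 2. Within slide 1, where only knockout controls 1 and 2 enter, the median was 0.90 and the count 1.

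Within the knockout, IL-4 minus control, 36 of 41 members had a negative difference, with a median of -0.70 (0.05 over all genes), but arrays of the groups did not overlap in only 10 members, beside 46.5% of all genes. At an adjusted p under 0.05, 22 were lower and 2, again Hif1a and Arnt, higher, beside 14.7% and 27.5% of all genes, and 11 were lower and 0 higher by at least 2-fold, beside 2.73% and 0.788%. These counts, too, are not read as a result. Mgarp differed by -3.84 ± 0.99, P4ha2 by -2.90 ± 1.03, Pygl by -2.42 ± 0.44, Egln3 by -2.31 ± 0.76 and Bnip3 by -1.79 ± 0.61. These SEs pool the knockout arrays with the closer wild-type arrays and so understate the spread of the arrays compared. For Mgarp the SDs were 0.85 in knockout control and 2.53 in knockout IL-4, beside 0.48 and 0.06 in wild-type control and IL-4. Without knockout IL-4 array 3 the median was -0.98 and the count 19, without knockout control 1 the count was 17, and without knockout control 2, knockout control 3, knockout IL-4 array 1 or knockout IL-4 array 2 it was 4. Calls over all genes in these fits were 542 to 646, beside 580 with all arrays. With slide as a block, which here sets the IL-4 arrays against knockout control 3 alone, the median was -0.85 and the count 12.

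With IL-4, knockout minus wild type, the median over the members was 0.31 (0.06 over all genes), and the arrays did not overlap in 17, beside 58.7% of all genes. At an adjusted p under 0.05, 7 were higher and 2 lower, beside 29.8% and 21.3% of all genes, and Egln3, Ankrd37 and Bhlhe40 were higher and none lower by at least 2-fold, beside 4.63% and 5.05%, which is again no more than a description. Egln3 was not well above background in wild-type IL-4, and 2 of its 3 knockout IL-4 arrays were. Ankrd37 differed by 2.40 ± 0.60 and Bhlhe40 by 1.94 ± 0.21, and Vegfa, lower in the knockout, by -0.90 ± 0.25. With slide as a block, the slide term rests only on knockout control 3 against knockout controls 1 and 2, arrays that differed widely in these members. A difference between slides and one between cultures cannot be told apart there. In that fit the median was -0.06 and 1 of the 3, Bhlhe40, still passed, while Vegfa passed as lower (-1.57). Without knockout IL-4 array 3 the median was 0.06. The count of 3 became 9 without knockout IL-4 array 1 and 5 without array 2, all higher, and 6 without array 3, of which 3 were higher and 3 lower. Calls over all genes were 1640, 1607 and 1625 in these fits, beside 1597 with all arrays. The IL-4 response of wild type minus that of the knockout had a median of 0.61 over the members (-0.10 over all genes), with 8 positive and 1 negative at an adjusted p under 0.05, beside 16.4% and 28.3% of all genes, and 5 and 1 with at least 2-fold, beside 5.61% and 5.03%. That count of 6 was 20 without knockout IL-4 array 3 and 11 without knockout control 1. Calls over all genes were 1927 and 1854 there, beside 1756 with all arrays. These comparisons share arrays with one another, so their values stand side by side and were not correlated.

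**Figure D5:**
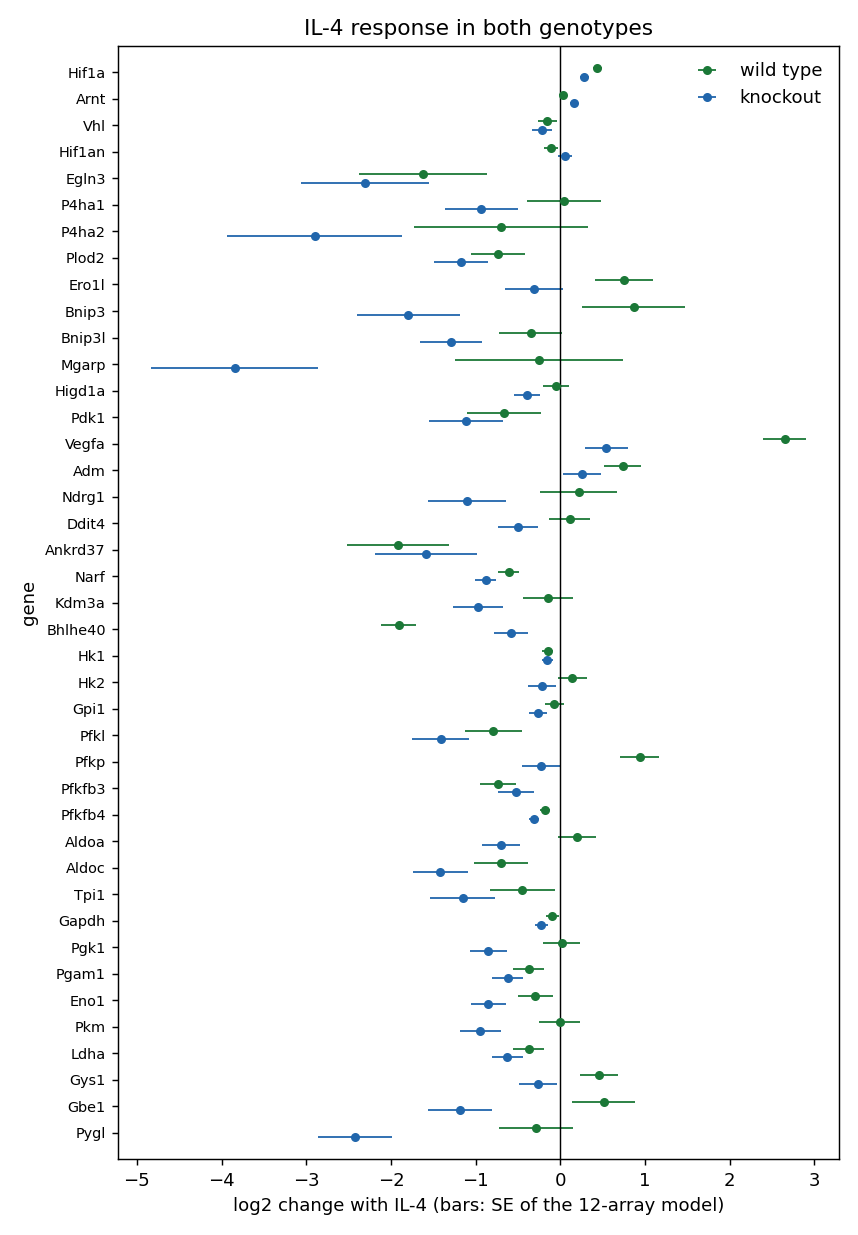
Log2 change with IL-4 (x axis) in wild type (green) and knockout (blue) for the 41 tested members (y axis), as means of 3 arrays against 3 with the SE of the 12-array model. Vegfa, at 2.65 in wild type and 0.55 in the knockout, lies furthest right, and Mgarp, at -3.84 in the knockout, furthest left.

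Most members with several probes gave a single direction. Of the 17 with several kept probes, 16 had probes of a single sign in the comparison of genotypes without IL-4, 16 in the knockout IL-4 response and 12 in the wild-type IL-4 response. The 3 Bnip3 probes differed by 2.51 to 2.70 between genotypes without IL-4, the 4 Bnip3l probes by 1.34 to 1.45 and the 3 Ldha probes by 0.74 to 1.23.

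Of other genes of the same pathways 50 were tested. In wild type 13 rose and 12 fell with IL-4 at an adjusted p under 0.05 (limma, adjusted over all genes), beside 26.4% and 30.8% of all genes, 7 and 5 of them by at least 2-fold, beside 5.72% and 6.95%, and the median change was -0.06. Stc2, a secreted glycoprotein, rose by 2.35 ± 0.18 (adjusted p = 1.42e-06), Trib3, a stress-induced pseudokinase, by 2.32 ± 0.14 (adjusted p = 2.41e-07) and Hmox1, heme oxygenase, by 1.76 ± 0.12 (adjusted p = 8.03e-07), on the log2 scale. Array 3 was highest and array 1 lowest in 30 of the 50 in knockout control and in 25 in knockout IL-4, and the median range was 0.39 and 0.31. Among those with the largest difference in the knockout with IL-4 were Ak4, an adenylate kinase of mitochondria, at -3.25 ± 1.04, and Slc16a3, a lactate exporter, at -2.85 ± 0.96. Slc16a3 had signals of 4.77, 5.64 and 5.86 in knockout control and 0.20, 2.28 and 5.25 in knockout IL-4, a range of 33.2-fold in the latter.

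The widest ranges among the knockout IL-4 arrays, over 10716 named genes well above background on all 3 of them, came from Mt2, Ak4, Slc16a3, Mgarp, Mt1, Fam71f2, Ankrd37, Bnip3, Cox7a1 and Hilpda. Mgarp, Ankrd37 and Bnip3 are members. Mt2, a metallothionein that binds zinc and is induced by metals and stress, had signals of 1.62, 2.96 and 4.17 in knockout control and -0.17, 1.35 and 6.22 in knockout IL-4, and its neighbour Mt1 gave 4.10, 4.72 and 5.38 and 2.84, 3.58 and 6.74. Their array 3 was the highest in both knockout groups, as in the members, while all 6 wild-type arrays lay between 0.43 and 0.97 for Mt2 and between 3.09 and 3.69 for Mt1. Hilpda, a lipid droplet protein, gave 3.35, 4.29 and 4.66 and 1.79, 2.46 and 4.47, and Cox7a1, a subunit of cytochrome oxidase, 0.48, 1.96 and 2.46 and -1.47, -0.96 and 1.27. Over all 16497 genes, the ranges of P4ha2 and Mgarp in knockout IL-4 ranked 4 and 5, Egln3 12, Ankrd37 17, Bnip3 18 and Pdk1 40, signals below background included.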

How the data were processed

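RNA of 12 B cell cultures was labelled with Cy3 (100 ng each, RNA integrity numbers 9.6 to 9.9 per the labels) and hybridised to Agilent arrays. Per the file headers, the authors' scanner files came from Agilent Feature Extraction 10.7.3.1, hold background-subtracted intensity per spot and use mm9 positions. The authors also deposited quantile-normalised log2 values per gene, used as an alternative. Here log2 intensity minus the 75th percentile of each array was averaged over spots of a probe (122 to 196 outlier spots per array left out). Probes entered if 1 or more groups had all 3 arrays well above background and each group had at least 2 values (22940 of 55681), and the brightest kept probe stood for a gene. Group means were fitted over all 12 arrays with limma 3.58.1 (R 4.3.3, data.table version 1.17.8, jsonlite 2.0.0), with Benjamini-Hochberg adjustment over the 16497 genes of a contrast. The call was an adjusted p under 0.05, alone or together with a log2 change of 1 or more in size. The model was tested on simulated data in which each gene had the same spread in all groups and 200 genes changed in wild-type IL-4. It recovered 88% of changes of 1 and 98% of changes of 2 (log2), with 6 false calls. The unequal spread of the real groups was not simulated, so its effect on SEs and p-values was not tested. Where no array of a group was well above background, a bound was computed from the lowest signal well above background of each array. The model holds 1 spread per gene for all 4 groups. An SE can therefore be too narrow where knockout arrays differed widely and too wide for wild type. Array numbers, 3 per group, limit the precision of every value. Plots used pandas 2.3.3 and matplotlib 3.10.9 (Python 3.11.15).

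The members and lists were chosen with earlier results of these data known. Single arrays are given for the 23 members that passed the 2-fold call in any contrast or ranged over 1 within a group, and for a few others. Of other pathway genes, the 3 with the largest change past the call were named for IL-4 in wild type and in the knockout (1 gene so chosen is not reported here), and the 10 named genes with the widest range in knockout IL-4. Adm, Hif1a, Narf, Pfkfb3, Pfkfb4 and the remaining members were named by role. Alternatives were quantile or median scaling, normexp background correction (offset 50), other filters, the mean of all probes, the authors' values, another variance model, only the compared arrays, slide or replicate number as a block, and each array left out. No exon annotation of mm9 was used here, so positions are given without one.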

Additional observations from a re-analysis of the deposited data

Results flagged for a closer look

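For 6 members the IL-4 response of wild type differed from that of the knockout by at least 2-fold and past an adjusted p of 0.05 in the interaction of the 12-array model (limma), 5 of them positive and 1 negative, beside 5.61% and 5.03% of all genes. The members were chosen with these arrays in view, so the values are a description and the threshold serves only to pick them out. The difference, wild-type response minus knockout response on the log2 scale, was 2.66 for Bnip3, 2.10 for Vegfa, -1.32 for Bhlhe40, 1.16 for Pfkp, 1.69 for Gbe1 and 2.14 for Pygl. A second, dim Pfkp probe gave -0.34, opposite in sign. Bnip3 met the threshold of p in 4 and Gbe1 in 5 of 12 fits that left out an array, and under the other 10 settings Bnip3, Pfkp and Pygl met it in 9 and Gbe1 in 8. With knockout IL-4 array 3 left out, 20 members passed in place of 6, beside 1927 in place of 1756 of all 16497 genes.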

How the results depend on the processing

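The values below are counts of members past an adjusted p under 0.05 with at least 2-fold. Each array left out in turn gave 2 to 4 members for IL-4 in wild type (3 with all arrays), 4 to 19 for IL-4 in the knockout (11), 4 to 20 for the difference of the responses (6), 1 to 23 for knockout minus wild type without IL-4 (19) and 2 to 9 for that with IL-4 (3). Calls over all genes in these fits were, in the same order, 2057 to 2097, 542 to 646 and 1652 to 1927. For the genotypes without and with IL-4 they were 73 to 305 and 1580 to 1640. Without the fold limit the member counts were 9 for IL-4 in wild type, 24 in the knockout and 9 for knockout minus wild type with IL-4. Without a filter on dim probes, 5 members passed for IL-4 in the knockout, 3 for the difference of the responses and 1 for the genotypes without IL-4. Of all 34650 genes in those fits, 674, 1866 and 83 passed. The authors' gene-level values gave 7 for IL-4 in the knockout and 6 for the genotypes without IL-4, beside 249 and 67 of all genes. Only the compared arrays gave 2 for IL-4 in the knockout, beside 517 of all genes. Slide as a block gave 10 for the difference and 1 for the genotypes without IL-4, beside 1965 and 81 of all genes. Its slide term rests only on knockout control 3 against knockout controls 1 and 2. The cause of these moves was not tested.

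Median scaling raised the median range of members in wild-type IL-4 from 0.09 to 0.21. The median over all genes went from 0.05 to 0.20 for IL-4 in the knockout, from -0.04 to -0.22 for the genotypes without IL-4 and from -0.10 to -0.23 for the difference. The members' medians under it were -0.55, 0.86 and 0.48. Over all genes it changed the higher calls from 130 of 580 to 234 of 544 for IL-4 in the knockout, from 138 of 194 to 116 of 246 for the genotypes without IL-4 and from 926 of 1756 to 765 of 1844 for the difference.

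In the order IL-4 in wild type, IL-4 in the knockout, the difference, the genotypes without and the genotypes with IL-4, the calls over all genes were 2089, 580, 1756, 194 and 1597. Normexp correction gave 1181, 226, 1032, 100 and 884, the authors' values 1268, 249, 1059, 67 and 917, and probes well above background on all arrays 1354, 359, 1161, 126 and 965. For the genotypes without IL-4, no filter gave 83 and slide as a block 81. No member past the 2-fold call changed direction under any alternative run. Whether the replicate numbers pair the samples is not known. Between arrays of the same number, the correlations of deviations ran from -0.24 to 0.39. Of 12 arrays, 4 correlated best with an array of their own number. Unpaired numbers could give such a share too, and a pairing with weak effects would not be seen, so this check cannot decide it. With a replicate block the member counts were 3, 11, 6, 19 and 4 in the same order.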
